A study of Mus musculus with 12 samples.

Results

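The comparison described here is that of SIRT1 knockout (KO) with wild-type (WT) mouse embryonic fibroblasts (MEFs), connective tissue cells grown from embryos, without the arrays numbered 3. It holds 3 KO arrays (numbers 2, 4 and 5) and 3 WT arrays (numbers 1, 2 and 5), 6 of the 12 arrays of the series, chosen by the genotype in the labels and by the number at the end of each title. The series also has SIRT1 heterozygous (Het) cells, and the 3 Het arrays other than number 3 are used for levels beside KO and WT. All cells are labelled female and untreated, and all were grown in DMEM that held 25 mM glucose, 4 mM glutamine and 10% serum (FBS). The labels do not say which stretch of Sirt1 was deleted, from which mouse strain the embryos came, or whether replicates were separate embryos or cultures, so p-values reflect how far these arrays vary among themselves, and that variation may be technical.

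SIRT1 is an NAD-dependent deacetylase of the nucleus. It removes acetyl groups from histones and from transcription factors, among them p53, FOXO proteins, NF-kB and PGC-1alpha. It is therefore studied as a link between the state of metabolism and programmes of stress response, cell division and differentiation. Fibroblasts make and remodel the extracellular matrix, and MEF cultures keep traces of the body region and cell mixture they were taken from.

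Expression was read on 1-colour Agilent arrays with 43379 non-control spots each. A level is the log2 of an array's processed signal minus that array's 75th percentile, so that 0 equals the percentile, and a difference is KO minus WT on this log2 scale. Of 27670 named features, 17474 were tested: those well above background, by the scanner software's call, on all 3 arrays of WT or of KO.

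Several arrays stand apart and bear on the results. KO 4 and KO 5 lay on 1 slide and were nearly the same. Their levels correlated at 0.998 over tested features, against 0.987 and 0.986 for KO 2 with either of them, and only 93 features differed by over 2-fold. Over 193 probes spotted many times the median absolute difference between the arrays was 0.0798, taken from the mean of each probe's spots. Between single spots of 1 probe it was 0.0748 on KO 4 and 0.0681 on KO 5. A mean of spots and a single spot are unlike measures, so these values cannot show whether the arrays are separate samples. KO 4 and KO 5 were kept as 2 samples, as labelled. Counts of called genes in each list are given again with both averaged into 1 sample. WT 1 correlated at 0.971 and 0.973 with WT 2 and WT 5, which correlated at 0.991 with each other. Slide 4, with WT 5, KO 4 and KO 5, had 76.9% to 77.8% of probes well above background, against 59.7% to 64.8% on the other slides. The number 3 arrays resembled each other across genotypes: Het 3 correlated at 0.977 with KO 3 and at 0.964 to 0.966 with the other Het arrays, and WT 3 correlated at 0.966 and 0.960 with Het 3 and KO 3 and at 0.927 to 0.936 with the other WT arrays. Of the arrays left out, WT 3 goes against its label: its brightest Xist probe read −2.94 against 2.32 to 3.42 on the 6 arrays compared, and Ddx3y read 1.04 at a probe where the 6 lay between −10.2 and −7.04.

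Sirt1 itself was read by 2 probes on chromosome 10 (build mm7, minus strand). At chr10:62838289-62838348 the level was 0.38, 0.52 and 0.47 on WT 1, 2 and 5 and −0.19, −0.67 and −0.75 on KO 2, 4 and 5. The KO and WT arrays did not overlap there, and KO arrays averaged 50.2% of the WT signal (difference −0.99, SE 0.19; limma adjusted p = 0.0245 in a fit of each of 26550 probes, of which 10.5% were called). With KO 4 and KO 5 averaged the adjusted p was 0.12. At chr10:62855795-62855854 the groups overlapped, with 0.87, 1.08 and 0.54 in WT and 1.25, 0.49 and 0.43 in KO (difference −0.11, SE 0.27; limma adjusted p = 0.845). The sequence of this second probe is shown because the KO and WT readings overlapped there, unlike at the first:
Sirt1 probe at 62855795: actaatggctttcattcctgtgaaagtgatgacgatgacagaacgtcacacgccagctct
No gene model of mm7 was used here, so the exon of either probe, and whether it lies inside the deleted stretch, is not given.

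KO and WT cells differed at 2065 of 17474 features, 11.8% of those tested (limma, Benjamini-Hochberg adjusted p under 0.05). Of these, 1045 (5.98%) rose and 1020 (5.84%) fell, 1397 by at least 2-fold, 570 by at least 4-fold and 88 by at least 16-fold. With KO 4 and KO 5 averaged, 301 features (1.72%) rose and 351 (2.01%) fell, and all of these 652 were also called with the arrays separate. Across tested features the median of KO minus WT was 0.02 after scaling and 0.21 on unscaled signals, so all changes are relative to the scaling. Without scaling 66.9% of the calls were rises, against 50.6% with it. Leaving out WT 1 gave 3337 calls, WT 2 1175, WT 5 1379, KO 2 1539, KO 4 647 and KO 5 670. Slide as a block gave 4400, in a fit where WT 1, alone on its slide, carries no weight. At 6235 features, 35.7% of those tested, the 3 KO arrays did not overlap the 3 WT arrays.

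The direction of these changes often did not carry over to the pair of arrays left out. Of the 1045 features that rose, 534 (51.1%) were also higher in KO 3 than in WT 3. Of the 1020 that fell, 325 (31.9%) were also lower, while 63.5% of all tested features were higher in KO 3. With the number 3 arrays kept, 85 features passed the test, 53 higher and 32 lower, all of them among the 2065. The difference of the number 3 pair, a single array against a single array, is therefore given beside many, not all, of the genes named below. WT 3 lay on slide 3 and KO 3 on slide 1, and the Xist and Ddx3y readings of WT 3 go against its label. Genotype, slide and that mismatch cannot be told apart in this pair.

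**Figure D1:**
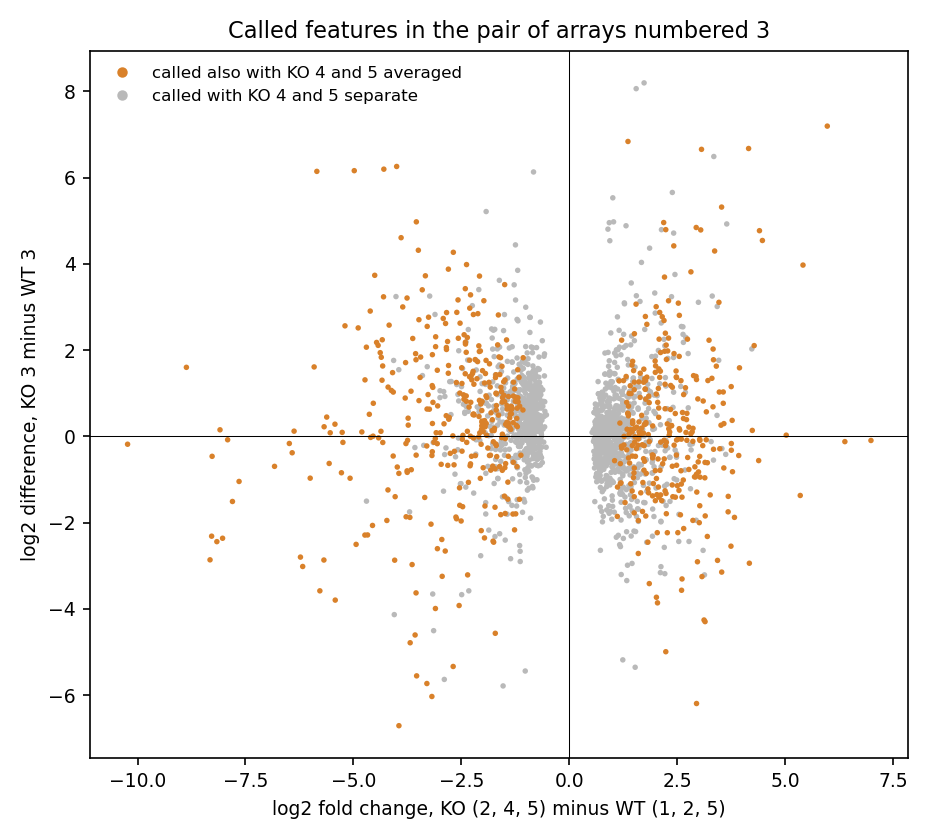
Each point is 1 of the 2065 called features, with the KO minus WT difference over the 6 arrays on the x axis and the KO 3 minus WT 3 difference on the y axis, both log2. Orange points were also called with KO 4 and KO 5 averaged. Points fill all 4 quadrants: 534 of the 1045 features on the right lie above 0, and 325 of the 1020 on the left lie below 0.

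The genes named by size passed the test both with KO 4 and KO 5 separate and averaged, had no overlap between the 3 KO and 3 WT arrays, and differed the same way on slide 3 (KO 2 and WT 2) and slide 4 (KO 4, KO 5 and WT 5). Of the 652 features that meet this, 560 have a gene symbol, and the sizes of the 40 named ones chose them, so their fold changes are a description. Adjusted p-values are those of the limma fit with the arrays separate.

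The largest measured rise was that of Nts, which encodes the neuropeptide neurotensin. Its level was −6.08, −6.31 and −6.36 on WT 1, 2 and 5 and −0.18, −0.24 and −0.38 on KO 2, 4 and 5 (difference 5.98, SE 0.15, adjusted p = 4.82e-05). WT stood near background, with 2 of 3 arrays well above it, and KO was high on all 3. In the number 3 pair Nts was also higher in KO, by 7.19. Cxcl14, a chemokine of epithelia and connective tissue, was at −4.43, −1.76 and −1.61 in WT and 2.84, 2.95 and 2.66 in KO (difference 5.42, SE 0.73, adjusted p = 0.00671). WT 1 was the lowest of the WT arrays, and the KO arrays lay close together. KO 3 exceeded WT 3 by 3.97. Lgals2, a galectin, was at −6.99, −4.99 and −4.90 in WT and −1.02, −1.27 and −1.37 in KO (difference 4.41, SE 0.55), and by 4.77 higher in KO 3 than in WT 3. Pdlim4, a PDZ and LIM protein of actin fibres, was bright in both genotypes, at −0.49, 0.63 and 0.38 in WT and 3.75, 4.38 and 4.22 in KO (difference 3.94, SE 0.33), and was 1.59 higher in KO 3. These 4 genes passed the test with the number 3 arrays kept as well, at adjusted p of 0.0029, 0.0167, 0.029 and 0.029.

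Erg, an ETS-family transcription factor best known from endothelium and blood, also rose, but not in the number 3 pair. It was at −5.96, −7.07 and −7.00 in WT and −1.98, −1.49 and −1.47 in KO (difference 5.03, SE 0.34, adjusted p = 5.67e-04). KO 3 (0.88) and WT 3 (0.85) differed by 0.03 and were above each of the 6 arrays compared. Several matrix genes rose over the 6 arrays and were lower in KO 3 than in WT 3. Cthrc1, a secreted protein of remodelling tissue, went from −0.65, −0.58 and −0.35 in WT to 2.85, 3.44 and 3.47 in KO (difference 3.78, SE 0.22, adjusted p = 3.30e-04), with a number 3 difference of −0.82. Tgfbi, a matrix protein induced by TGF-beta, went from 1.19, 0.88 and 2.10 to 4.48, 5.42 and 5.30 (difference 3.68, SE 0.39), with a number 3 difference of −1.75. Hmcn1, hemicentin of the extracellular matrix, was 4.17 higher (SE 0.61) over the 6 arrays, and its number 3 difference was −2.94. Col8a2, a short-chain collagen, was 3.75 higher (SE 0.45) and kept its direction in the number 3 pair, by 1.15.

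The remaining rises of this size were Megf6 (4.39), Megf10 (4.29), Etl4 (4.24), Rflna (3.93) and Serpina3g (3.83). Megf10, an engulfment receptor, was 2.11 higher in KO 3 than in WT 3. Serpina3g, a serine protease inhibitor of the mouse Serpina3 cluster, had −1.88 there, and its near-identical neighbours may share its signal. The other tested probes of Etl4 gave 1.53 to 2.10, below the 4.24 of the brightest one.

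**Figure D2:**
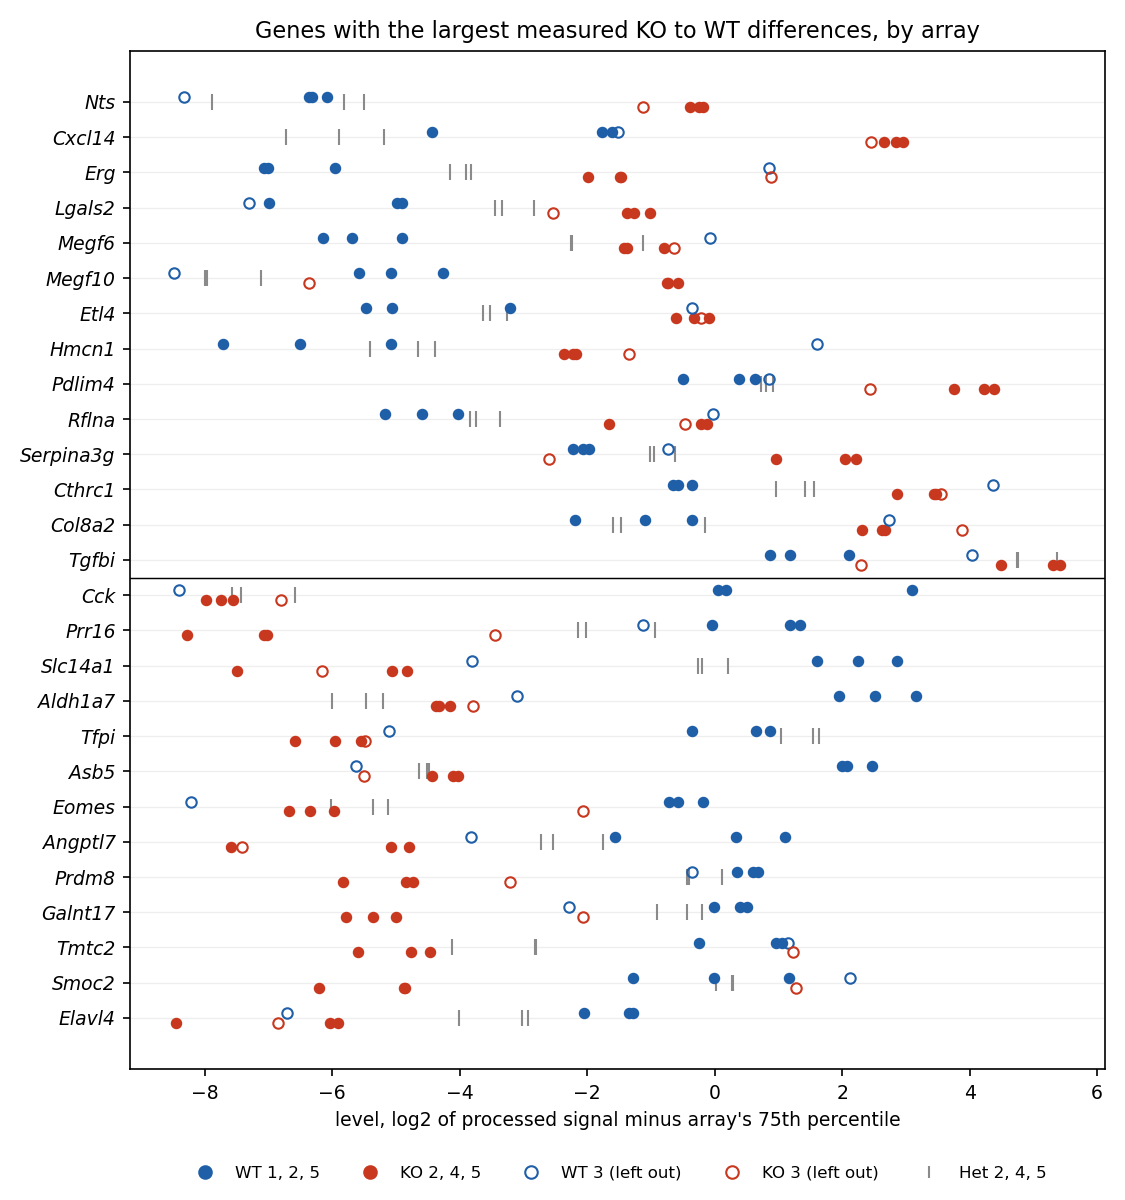
Levels (log2 signal relative to each array's 75th percentile, x axis) of the 14 largest rises, above the line, and 13 of the 14 largest falls, below it. Blue points are WT arrays, red points KO arrays, open points the number 3 arrays left out, and grey ticks Het arrays. The filled blue and red points do not overlap for any gene, while open points often lie together, as at Erg, Asb5 and Tmtc2.

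Some genes were well above background in KO cells and on no WT array, and for these the fold is a bound: the KO mean against the lowest signal called well above background on each WT array, or the gene's own signal there if higher. The WT spread of such genes is that of background readings, so no p-value is given for them. Kcne4, a potassium channel subunit, was at −1.19, −1.18 and −1.10 in KO and between −8.43 and −7.79 in WT, at least 42.2-fold higher. It was as low in KO 3 (−8.55) as in WT 3 (−8.45), so KO 3 did not share this signal. Tspan18, a tetraspanin, was at least 15-fold higher, with a number 3 difference of −1.37. Rassf9 (Pamci on the array), a RAS-association domain protein, was at least 6.25-fold higher, and KO 3 exceeded WT 3 by 6.68. Serpina3f, Sh3gl2 (endophilin A1 of synaptic vesicle recycling) and Tnfsf10 (the death ligand TRAIL) were at least 6.02-fold, 5.26-fold and 3.11-fold higher. Their number 3 differences were −2.55, −0.16 and −1.36. A second Serpina3f probe gave a difference of 1.02.

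Falls reached larger sizes than rises. Cck, which encodes the gut and brain peptide cholecystokinin, was at 3.10, 0.05 and 0.18 on WT 1, 2 and 5 and −7.55, −7.74 and −7.97 on KO 2, 4 and 5 (difference −8.87, SE 0.79, adjusted p = 0.00152). WT 1 was the highest array, and 2 of 3 KO arrays were well above background. The Het arrays were as low as KO, at −7.19 ± 0.54 (SD, n = 3), and WT 3 was lower still, at −8.40, and on the 9 arrays other than WT 1, 2 and 5 it did not exceed −6.13. Asb5, an ankyrin-repeat SOCS box protein, had the same layout, with 2.47, 2.07 and 2.00 in WT, −4.44, −4.11 and −4.03 in KO, −4.54 ± 0.09 in Het and −5.62 in WT 3. Its difference was −6.37 (SE 0.20, adjusted p = 5.49e-05). Aldh1a7, an aldehyde dehydrogenase, fell by 6.83 (SE 0.31) with Het at −5.56 ± 0.40, below KO. Aldh1a1, a close paralogue that makes retinoic acid, fell by 3.73 (SE 0.24).

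A second set of falls set KO apart from Het as well. Prr16 was at −0.03, 1.18 and 1.33 in WT and −8.28, −7.02 and −7.07 in KO (difference −8.28, SE 0.48, adjusted p = 3.53e-04). Het arrays lay between, at −1.70 ± 0.66, and the number 3 difference was −2.31. Prdm8, a transcriptional regulator of the PRDM family, was at 0.36, 0.69 and 0.61 in WT and −5.82, −4.73 and −4.84 in KO (difference −5.68, SE 0.31), with a number 3 difference of −2.87. Both passed the test with the number 3 arrays kept, at adjusted p of 0.0391 and 0.00994. Slc14a1, a urea transporter, fell by 8.03 (SE 0.74), with −2.36 in the number 3 pair. Angptl7, an angiopoietin-like secreted protein, fell by 5.78 (SE 0.94), with −3.58 in that pair. Slc14a1 and Angptl7 were well above background on 2 of 3 KO arrays, so the sizes of their falls are uncertain.

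Tfpi, the inhibitor of tissue factor that limits clotting, fell by 6.42 (SE 0.40), from −0.36, 0.66 and 0.87 to −6.58, −5.55 and −5.95, with Het as high as WT at 1.41 ± 0.32. In the number 3 pair it was low in both arrays, with a difference of −0.38. Eomes, a T-box transcription factor, fell by 5.85 (SE 0.24) over the 6 arrays and was 6.15 higher in KO 3 than in WT 3. The differences of Galnt17 (Wbscr17 on the array), Tmtc2, Smoc2 and Elavl4 were −5.68, −5.54, −5.28 and −5.24. Smoc2 and Elavl4 were well above background on 2 of 3 KO arrays. Other probes gave −3.29 and −3.48 for Galnt17 and −3.73 for Tmtc2.

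Genes well above background on all WT arrays and on no KO array are again given by bounds. Rpl39l (4930517K11Rik on the array), a copy of the ribosomal protein gene Rpl39, was at 2.57, 1.40 and 1.36 in WT and −8.48, −8.17 and −8.72 in KO, at least 604-fold lower. It was at −7.76 ± 0.35 in Het and −8.36 in WT 3, and its highest level on the 9 other arrays was −6.87. Tbx20, Lhx8 and Sim1, developmental transcription factors, were at least 101-fold, 81.4-fold and 23.1-fold lower. Ces2g, a carboxylesterase, was at least 23.3-fold lower. Sdk1, a synaptic adhesion protein, was at least 65.7-fold lower. Sdk1 stayed bright in Het (−1.56 ± 1.15) and had a number 3 difference of −1.51. Tbx20, Lhx8, Ces2g and Sim1 were well above background on no Het array. On WT 3, Lhx8, Ces2g and Sim1 were also low, at −8.46, −7.53 and −8.39, and Tbx20 was bright, at −1.29.

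Of the 40 genes named by size, 14 differed by over 2-fold in the same direction in the number 3 pair, 8 by over 2-fold in the opposite direction, and 18 by less than 2-fold. The 7 that passed the test with the number 3 arrays kept were Nts, Cxcl14, Lgals2, Pdlim4, Prr16, Prdm8 and Sdk1.

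The difference between KO and Het was fitted on the 9 arrays other than number 3, where 1562 features (8.94%) passed the test. KO arrays enter both comparisons, so the KO to Het values are given gene by gene. Pdlim4 was 3.30 higher in KO than in Het (SE 0.29, limma adjusted p = 2.68e-04). Nts, Cxcl14, Megf10 and Kcne4 were well above background on all 3 KO arrays and on 1 of 3 Het arrays, so no size is given for them. The difference was −4.89 for Prdm8 (SE 0.29, 6.17e-05), well above background throughout, and −7.43 for Tfpi (SE 0.37, 2.12e-05) and −5.76 for Prr16 (SE 0.50, 2.51e-04), each well above background on 2 of 3 KO arrays. Sdk1 was well above background on 3 Het arrays and on no KO array. At other genes KO and Het were not told apart. The KO minus Het difference of Tgfbi was 0.11 (95% interval −0.73 to 0.95), that of Megf6 0.68 (−0.23 to 1.59) and that of Asb5 0.35 (−0.04 to 0.75), all well above background on the KO and Het arrays. Of the 6 KO and Het arrays, Cck was well above background on 3, Rpl39l on 1 and Lhx8 on 0, so no difference is given for them.

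Among the gene groups, the p53-induced genes had the most one-sided count. These are genes that the tumour suppressor p53 switches on after stress, for cell cycle arrest, apoptosis and DNA repair, and p53 is a deacetylation substrate of SIRT1. Of 36 tested, 19 fell and 0 rose, against 5.84% and 5.98% of all features, and 31 were lower in KO. The median difference was −1.16, against 0.02 over all features. With KO 4 and KO 5 averaged 9 fell, and without KO 4 or KO 5 10 and 11 fell. Averaged counts, here and in the lists below, stand against 1.72% of all features that rose and 2.01% that fell. Cdkn1a, the CDK inhibitor p21, was at 4.43, 3.19 and 3.27 on WT 1, 2 and 5 and 0.71, 0.99 and 0.66 on KO 2, 4 and 5 (difference −2.85, SE 0.35, adjusted p = 0.00463). Falls were also called at Ccng1 (cyclin G1; −2.31, SE 0.20), Aen (an apoptotic nuclease; −2.23, SE 0.16) and Psrc1 (−2.31, SE 0.16). Eda2r, a TNF receptor family member, was at −3.40 (SE 0.26), Pmaip1, the BH3-only protein Noxa, at −3.48 (SE 0.31) and Cd80 at −3.86 (SE 0.56). Mdm2, which encodes the ubiquitin ligase that degrades p53, was at 4.41, 3.10 and 3.25 in WT and 1.38, 1.48 and 1.43 in KO. Its fall of 2.16 (SE 0.35, adjusted p = 0.0129) missed the threshold with KO 4 and KO 5 averaged (adjusted p = 0.0603), as did that of Bax (−1.08, 0.0501). The transcript of p53 itself, Trp53, differed by 0.59 (SE 0.39, adjusted p = 0.379), and Sesn1 by 0.90 (SE 0.25, adjusted p = 0.0629).

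The same genes show how the WT arrays stand. Relative to the mean of WT 1, 2 and 5, the median of the 36 tested members was 0.43, −0.28 and −0.08 on WT 1, 2 and 5, −1.32, −1.14 and −1.19 on KO 2, 4 and 5, and −1.52, −1.04 and −1.09 on Het 2, 4 and 5. On the number 3 arrays it was −1.79 in WT, −0.97 in Het and −0.62 in KO. WT 1, 2 and 5 were thus above the 9 other arrays, WT 3 included. The KO 3 minus WT 3 median was 0.96, opposite in sign, and with the number 3 arrays kept no member passed the test and the median was −0.74. KO was not told apart from Het at Cdkn1a (−0.81, limma adjusted p = 0.162), Mdm2 (−0.57, 0.331) or Ccng1 (−0.04, 0.96), and was lower than Het at Pmaip1 (−1.47, 0.028) and Eda2r (−1.06, 0.0367).

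**Figure D3:**
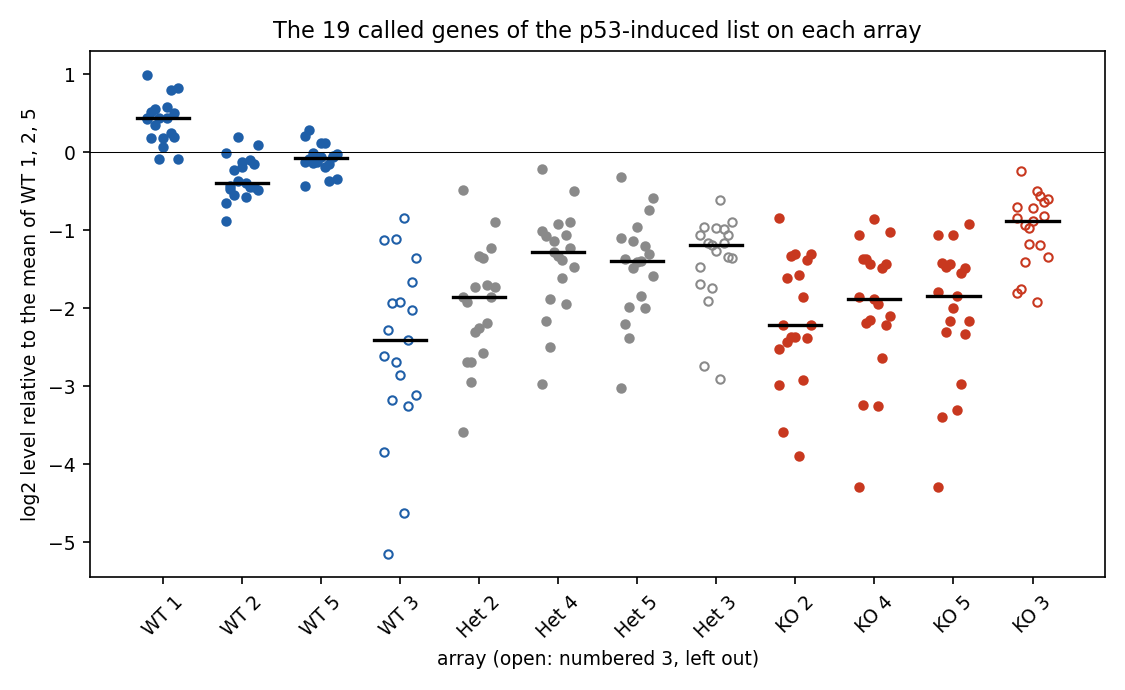
The 19 called genes of the p53-induced list on each of the 12 arrays, as log2 level relative to the mean of WT 1, 2 and 5. Each point is a gene, black bars are medians, and open points are the arrays numbered 3. The medians of WT 1, 2 and 5 lie around 0 and those of the 9 other arrays, WT 3 among them, lie below.

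Promoter windows of these genes were searched for the p53 half-site, the 10-base element that p53 binds as a pair, since the members moved together. RefSeq windows (build GRCm38.p6) run from 250 bases before to 50 bases after a transcription start, and 29 of the 36 tested members have at least 1. A half-site was found in 7 of 16 called members with a window and in 4 of 13 not called, against 9.55% of all 27025 genes. The list is made of known p53 targets, so this share describes the list and not the arrays. Cdkn1a was the single member with 2 half-sites within 13 bases of each other, against 0.074% of genes. The stretches around the matches in 4 of the fallen genes follow, 5′ to 3′ on the gene's strand, with the half-sites in capitals. They lie at chr17:29090876-29090967 for Cdkn1a, chr10:117710905-117710974 for Mdm2, chr11:40755432-40755501 for Ccng1 and chr7:78895907-78895976 for Aen.
Cdkn1a: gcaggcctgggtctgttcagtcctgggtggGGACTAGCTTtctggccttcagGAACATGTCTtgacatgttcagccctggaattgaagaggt
Mdm2: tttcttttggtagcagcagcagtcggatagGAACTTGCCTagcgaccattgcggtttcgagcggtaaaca
Ccng1: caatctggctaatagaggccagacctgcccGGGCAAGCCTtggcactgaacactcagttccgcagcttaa
Aen: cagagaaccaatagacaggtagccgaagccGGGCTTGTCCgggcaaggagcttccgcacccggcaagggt
The marked half-sites of Cdkn1a are separated by 12 bases and begin 73 and 51 bases before the start of its upstream transcript. The search took exact matches alone, so near matches beside them are not marked, and the pair p53 binds may be another. A match of letters is not evidence of binding in these cells.

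Cell cycle genes moved little beside this. Of 37 mitotic genes 0 passed, though 29 were higher in KO (median 0.12). Their median was −0.13 on slide 3 and 0.13 on slide 4. Of 42 genes of the G1/S transition and DNA replication, 3 rose and 2 fell, against 5.98% and 5.84% of all features. Ccnd1, cyclin D1, fell by 1.53 (SE 0.30, adjusted p = 0.024), and the replication factor Mcm10 rose by 0.92 (SE 0.16, adjusted p = 0.0159). None of these 5 was called with KO 4 and KO 5 averaged. Among 20 genes of CDK inhibition and senescence 2 rose and 3 fell (averaged 1 and 2). Cdkn1c (p57), an imprinted inhibitor, rose from 1.01, −0.23 and −0.28 in WT to 3.11, 4.03 and 3.95 in KO (difference 3.53, SE 0.42, adjusted p = 0.00425) while Cdkn1a fell, and in the number 3 pair both had the opposite sign, with −3.15 for Cdkn1c and 2.06 for Cdkn1a.

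Genes of ribosome biogenesis and targets of Myc were lower in KO at 27 of 28 (median −0.47). Of these 28, 4 fell and 0 rose, against 5.84% and 5.98% of all features, and 2 fell with KO 4 and KO 5 averaged. Mycn, a Myc-family transcription factor, fell from −1.89, −0.08 and −0.13 to −6.66, −4.98 and −5.12 (difference −4.89, SE 0.64, adjusted p = 0.00607), and Utp20, an 18S processing factor, fell by 1.38 (SE 0.19). In the number 3 pair the median of these 28 was 0.47. Immediate early genes had a median of −1.03, with 4 of 23 that fell, and 0 of 23 with KO 4 and KO 5 averaged. The median was −0.27 without WT 1 and 0.98 in the number 3 pair.

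The metabolic lists differed in their counts. No gene of 52 subunits of oxidative phosphorylation passed the test (median 0.00, unscaled 0.18), and the smallest p was that of Ndufs6 (0.96, SE 0.27, adjusted p = 0.0705). The slides differed in sign for these subunits, with a median of −0.43 on slide 3 and 0.18 on slide 4, and it was 0.70 in the number 3 pair. In the TCA cycle list 1 of 26 rose, Pck2, the mitochondrial PEP carboxykinase, by 1.22 (SE 0.17, adjusted p = 0.00725). In glycolysis Hk2, hexokinase 2, fell by 1.52 (SE 0.26) and Aldoc rose by 1.42 (SE 0.29), 2 of 24, and 0 of 24 when averaged. Of 24 genes of fatty acid oxidation and PPAR alpha, 5 rose and 1 fell (averaged 2 and 0), against 5.98% and 5.84% of all features. Of 32 genes of glutamine and amino acid metabolism, 4 rose and 3 fell, and averaging KO 4 and KO 5 left 0. Fgf21, a hormone of fasting and mitochondrial stress, rose from −4.24, −4.96 and −3.76 to −0.91, −0.65 and −0.70 (difference 3.57, SE 0.31, adjusted p = 0.00133). KO and WT did not overlap, and Het (−0.50 ± 0.12) was as high as KO. Ucp2, an inner mitochondrial membrane carrier, rose by 2.27 (SE 0.29), with a number 3 difference of −2.23. The lipase gene Lpl fell by 3.18 (SE 0.19, adjusted p = 3.60e-04) and was also lower in KO 3 (−6.03).

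The other sirtuins were measured without a call. Of 18 tested genes of sirtuins and NAD enzymes 0 passed (limma), with Sirt2 at 0.04 (SE 0.14), Sirt3 at 0.25 (SE 0.16), Sirt4 at 0.56 (SE 0.20), Sirt5 at 0.13 (SE 0.18), Sirt6 at 0.14 (SE 0.20) and Sirt7 at 0.04 (SE 0.16). The smallest p in the list was that of Nadsyn1, NAD synthetase (0.64, SE 0.20, adjusted p = 0.092). Nampt, the rate-limiting enzyme of NAD salvage, differed by 0.32 (SE 0.20).

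**Figure D4:**
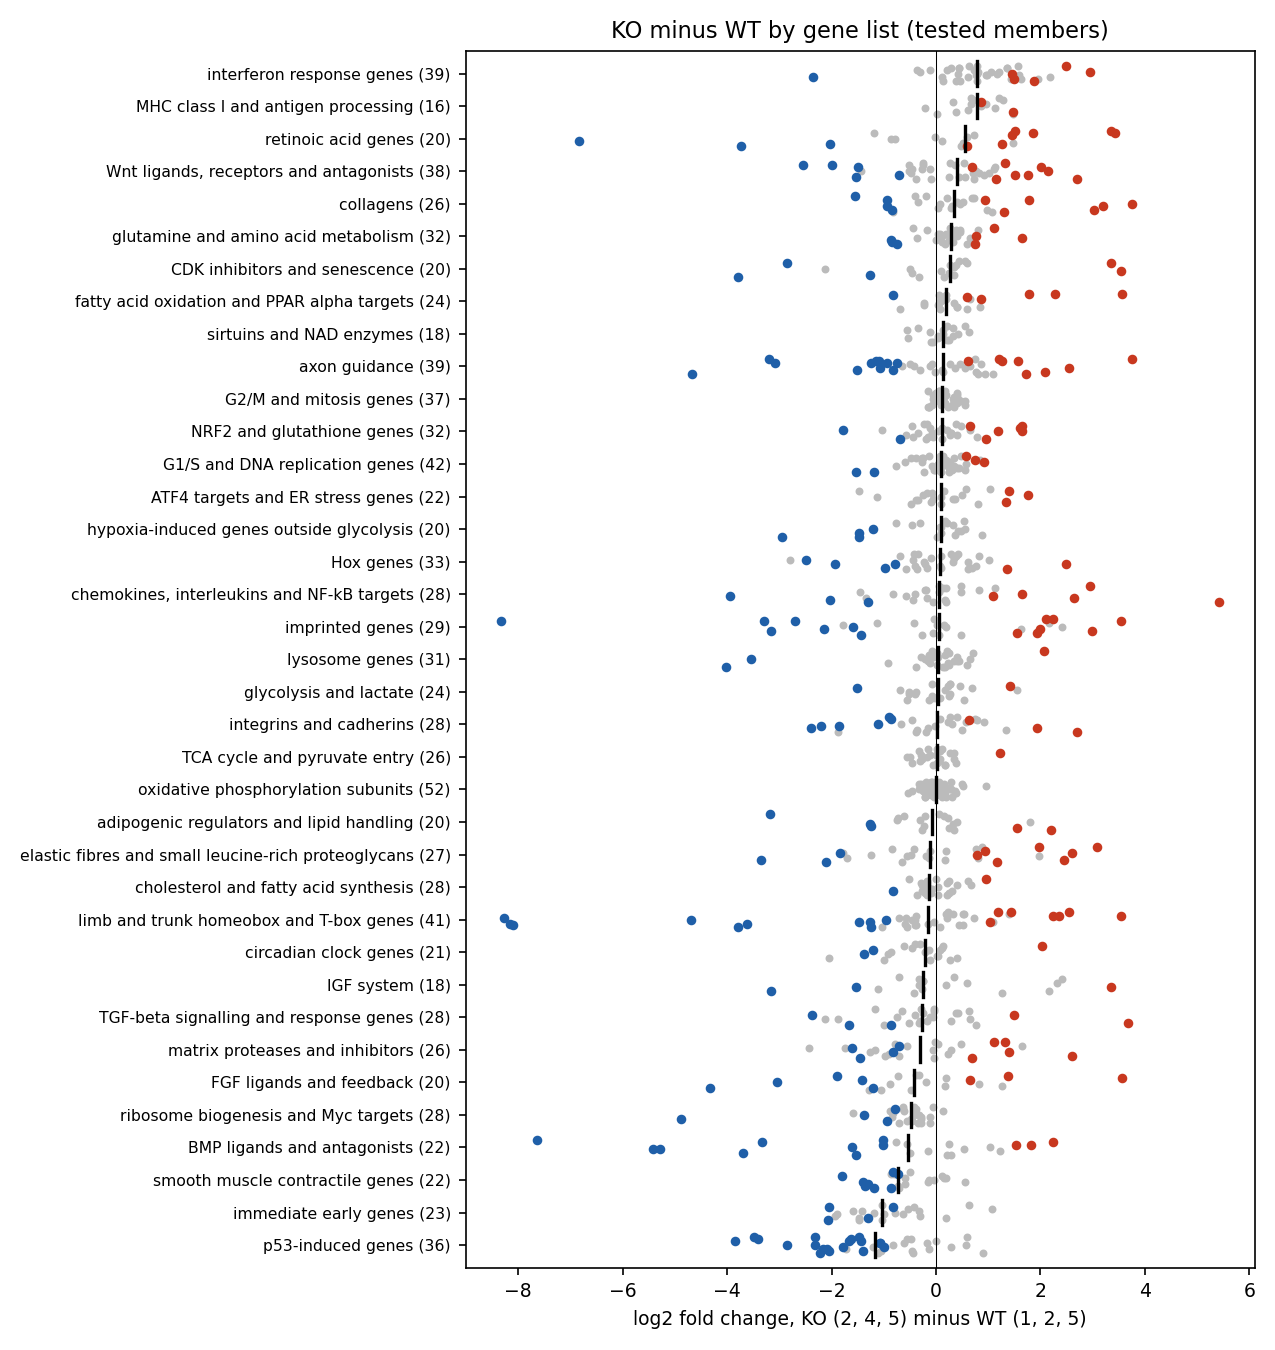
KO minus WT log2 fold change (x axis) of each tested member of the 37 gene lists, ordered by median (black bar), with the number tested in parentheses. Red points rose and blue points fell at adjusted p under 0.05, and grey points were not called. The p53-induced list is at the bottom with 19 blue points and no red one, and most developmental lists hold both colours.

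Developmental transcription factors changed in both directions. Of 41 tested homeobox and T-box genes of limb and trunk, 7 rose and 10 fell, against 5.98% and 5.84% of all features, and 4 and 6 did so with KO 4 and KO 5 averaged. Isl1, a regulator of hindlimb, heart and motor neuron precursors, was at −0.62, −0.14 and 0.24 in WT and −8.36, −8.19 and −8.22 in KO. Tbx5, which marks forelimb and heart, was at 0.35, 0.22 and 0.74 in WT and −8.37, −7.34 and −7.80 in KO. Both fell to well above background on 1 of 3 KO arrays, so no size is given. Both were low in Het (−7.37 ± 0.27 and −6.45 ± 0.48) and in WT 3 (−8.33 and −6.44). Tbx3 (−3.79, SE 0.22) and Foxf2 (−3.62, SE 0.23) also fell. Pitx1, the hindlimb regulator, rose from 1.49, 1.53 and 1.07 to 3.48, 3.89 and 3.77 (difference 2.35, SE 0.20, adjusted p = 0.00124), and KO stood 7.68 above Het. Lhx9, Lhx2 and Tbx15, factors of limb and body wall mesenchyme, rose by 2.24, 2.55 and 1.43, and all 3 were also higher in KO 3 than in WT 3, by 4.79, 1.86 and 0.99. Of 33 Hox genes 2 rose and 4 fell, and averaging KO 4 and KO 5 left 1 rise and 0 falls. The falls included Hoxb13 (−2.49, SE 0.41) and Hoxa13 (−1.93, SE 0.31), which pattern the most posterior and distal parts of the body.

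Genes of secreted signals that pattern tissues also changed in both directions. Of 22 BMP ligands, receptors and antagonists 3 rose and 9 fell (averaged 3 and 4), against 5.98% and 5.84% of all features. Gdf6, a BMP ligand of joints, was at −2.48, −2.63 and −2.82 in WT and −8.48, −7.52 and −8.19 in KO. There 1 of 3 KO arrays was well above background, so no size is given. Gdf6 was also lower in KO 3 (−3.80). Bmp2 was well above background on no KO array, at least 5.94-fold lower, and was 3.72 higher in KO 3 than in WT 3. Chrdl1, an antagonist, rose by 2.24 (SE 0.28), with a number 3 difference of −4.99. Of 38 Wnt genes 8 rose and 5 fell (averaged 4 and 3). Fzd4, a receptor, rose by 2.14 (SE 0.15, adjusted p = 6.29e-04), the ligand Wnt10a by 2.71 (SE 0.36) and the secreted antagonist Sfrp4 by 2.02 (SE 0.21). The ligand Wnt5a (−1.50, SE 0.15) and the antagonist Dkk2 (−2.54, SE 0.31) fell, and both were lower in KO 3 too (−1.39 and −1.19). Of 20 FGF genes 3 rose and 5 fell (averaged 2 and 3), with Fgf10, the limb and lung bud ligand, at −4.34 (SE 0.68) and Fgf5 at −3.05 (SE 0.39). Of 39 axon guidance genes 8 rose and 11 fell (averaged 4 and 4). The receptor Robo2 rose from well above background on 1 WT array to all 3 KO arrays, so no size is given. Its ligand Slit3 fell by 4.67 (SE 0.45) from 3.62, 1.89 and 2.82 to −2.35, −1.57 and −1.76. Sema5a fell by 3.20 (SE 0.22). Slit3 and Sema5a were lower in KO 3 as well (−2.28 and −2.03).

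Retinoic acid genes gave 7 rises and 3 falls among 20, against 5.98% and 5.84% of all features. The falls were the synthesising enzyme Aldh1a1 and its paralogue Aldh1a7, already given, and the binding protein Crabp1 (−2.02, SE 0.20). The rises included Crabp2 (1.51, SE 0.20, adjusted p = 0.00585) and the receptor Rarb (3.42, SE 0.79). Averaging KO 4 and KO 5 left 1 rise (Crabp2) and the 3 falls.

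Imprinted genes, expressed from a single parental allele, were called at 14 of 29, 7 in each direction, against 11.8% of all features. Peg3, a paternally expressed zinc-finger gene, was at −0.08, 0.13 and 0.52 in WT and −8.47, −7.45 and −8.47 in KO. It was well above background on 1 of 3 KO arrays, so no size is given, and was as low in Het (−7.57 ± 0.67). Usp29, its neighbour in the same imprinted domain, also fell, to well above background on 1 of 3 KO arrays, with Het at −7.31 ± 1.05. Impact fell by 2.69 (SE 0.16) from 3.22, 2.86 and 2.94 to 0.40, 0.26 and 0.29, and here Het was as high as WT, at 2.77 ± 0.03. Nnat rose by 2.98 (SE 0.43), Rasgrf1 by 2.10 (SE 0.17) and Plagl1 by 1.99 (SE 0.17). Averaging KO 4 and KO 5 left 4 rises and 4 falls.

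Matrix genes changed in both directions. Of 26 collagen genes 6 rose and 4 fell (averaged 3 and 1), against 5.98% and 5.84% of all features. Col14a1 rose by 3.20 (SE 0.34). Col15a1 also rose, with 1 of 3 WT arrays well above background, so no size is given. Of the 4 falls 3 were basement membrane collagens: Col4a1 (−0.94, SE 0.14), Col4a2 (−0.85, SE 0.16) and Col4a5 (−0.93, SE 0.20). None of those 3 was called with KO 4 and KO 5 averaged, and all 3 were lower in KO 3 than in WT 3 (−0.81, −1.16 and −1.20). Of 27 genes of elastic fibres and small proteoglycans 7 rose and 3 fell (averaged 3 and 2). Eln, elastin, was at −3.82, −3.63 and −3.29 in WT and −0.62, −0.40 and −0.50 in KO (difference 3.08, SE 0.18, adjusted p = 3.67e-04). The microfibril genes Fbn2 and Mfap2 rose by 2.46 (SE 0.21) and 2.60 (SE 0.27), while Mfap5 (−3.35, SE 0.39) and Fbln5 (−1.85, SE 0.19) fell. Eln and Mfap2 were lower in KO 3 than in WT 3 (−3.25 and −3.57), so their rise over the 6 arrays was not shared by that pair. Adamts2, which trims procollagen, rose by 2.60 (SE 0.22).

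Of 22 contractile genes of smooth muscle and myofibroblasts, 8 fell and 0 rose, against 5.84% and 5.98% of all features. In this list 18 were lower in KO, with a median of −0.72. Averaging KO 4 and KO 5 left 1 fall, Cnn1, calponin. Leaving out WT 1 gave 13 falls and leaving out KO 5 gave 1. In the number 3 pair the median was 0.33. Cnn1 was at 4.76, 4.84 and 4.82 in WT and 3.23, 3.49 and 3.47 in KO (difference −1.41, SE 0.15, adjusted p = 0.0025), with Het lower than KO, at 0.09 ± 0.03. Acta2, smooth muscle actin, was at 6.79, 7.66 and 7.72 in WT and 6.22, 6.21 and 6.19 in KO (difference −1.18, SE 0.27, adjusted p = 0.0371). Ccn2, a connective tissue growth factor induced by TGF-beta and stretch, fell by 2.38 (SE 0.18, adjusted p = 9.25e-04), while Tgfb2 rose by 1.49 (SE 0.19) along with Tgfbi. The summed level of the 9 markers of smooth muscle and pericytes ranged from 7.30 to 7.97 in WT and from 6.50 to 6.55 in KO. In these bulk cultures fewer cells of a type and less RNA per cell cannot be told apart.

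Of 39 interferon response genes 35 were higher, with a median of 0.79, but 5 rose and 1 fell, against 5.98% and 5.84% of all features. With KO 4 and KO 5 averaged the fall alone was called. Leaving out WT 1 gave 14 rises and leaving out KO 4 gave 0. Iigp1, an interferon-induced GTPase, was at 1.62, 0.27 and 1.45 in WT and 3.29, 3.84 and 3.67 in KO (difference 2.49, SE 0.38, adjusted p = 0.0106, and 0.0537 when averaged). Oasl1, a repressor of interferon production, fell by 2.36 (SE 0.35). WT 2 was low across this list, at −0.83 relative to the WT mean against 0.50 on WT 1 and 0.34 on WT 5, and the KO arrays stood at 0.71 to 0.95. Of 16 genes of MHC class I and antigen processing 2 rose, H2-M3 by 1.47 (SE 0.20) and Tapbpl by 0.86 (SE 0.19), and 15 were higher (median 0.78). H2-M3 alone was called when KO 4 and KO 5 were averaged. The number 3 pair gave −0.75 for that list. Among chemokines and NF-kB targets Cxcl12, a homing signal for blood cells, rose by 2.65 (SE 0.25), Il1rn, the interleukin 1 receptor antagonist, by 2.94 (SE 0.39), and Cxcl14 as above, while Vcam1 fell by 1.30 (SE 0.18). These were higher or lower in KO 3 in the same direction, with 0.97 for Cxcl12, 4.84 for Il1rn and −0.60 for Vcam1.

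Of 20 hypoxia-induced genes outside glycolysis 4 fell, with Adm (adrenomedullin) at −2.95 (SE 0.30), Stc2 at −1.48 (SE 0.16) and the oxygen sensor Egln3 at −1.47 (SE 0.15), and 0 rose (averaged 3 and 0), against 5.84% and 5.98% of all features. Adm and Stc2 were also lower in KO 3 (−2.39 and −1.79). Of 31 lysosome genes the protease Ctsc rose by 2.08 (SE 0.21), while Gpnmb (−3.53, SE 0.47) and the protease Ctsk (−4.01, SE 0.61) fell. Ctsc and Gpnmb kept their direction in the number 3 pair, with 1.57 and −5.55, and Ctsk did not, with 3.24 and no call when averaged. In the IGF system 1 of 18 rose and 2 fell (averaged 0 and 1), among them the receptor Igf1r, by 1.53 (SE 0.15). Of the 32 NRF2 and glutathione genes 6 rose and 2 fell, and of 22 ATF4 and ER stress genes 3 rose, led by Vldlr, a lipoprotein receptor (1.76, SE 0.18), the 1 rise left when averaged. Of the 8 calls in the first of these lists 0 held with KO 4 and KO 5 averaged.

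The labelled cell type was checked by markers. All 12 fibroblast markers were well above background on all 6 arrays, with a summed level of 9.38 to 9.56 in WT and 9.14 to 9.20 in KO. Thy1, a surface marker of many fibroblasts, fell from 4.76, 4.20 and 4.12 to 0.79, 0.77 and 0.60 (difference −3.64, SE 0.21, adjusted p = 3.43e-04), with Het between at 2.74 ± 0.28 and a number 3 difference of −2.97. S100a4 (−1.64, SE 0.19) and Prrx1 (−1.24, SE 0.24) fell too. Lists of markers of other cells were detected in part. Well above background on all 6 arrays were 6 of 8 neural and glial markers, 7 of 9 of cartilage and bone, 7 of 9 of smooth muscle and pericytes, 4 of 9 mesothelial, 4 of 8 epithelial, 3 of 8 endothelial, 3 of 8 of macrophages and blood, 2 of 7 of skeletal muscle and 0 of 6 of pluripotent and germ cells. Ptprc of leukocytes, Pecam1 and Tie1 of endothelium, Esrp1 of epithelium, Wt1 and Lrrn4 of mesothelium, Matn1 and Ibsp of cartilage and bone, Sox2 of neural precursors, Myf5 and Myh3 of skeletal muscle, and Dppa3 of germ cells were well above background on none of the 6 arrays. The endothelial markers summed to −1.64 to −0.85 in WT and −3.03 to −2.41 in KO, with Kdr at −2.44 (SE 0.29), although Erg rose. Mesothelial and simple epithelial markers summed to 4.41 to 6.05 in WT and 4.79 to 5.16 in KO, and Krt19, Krt7 and Upk3b fell while Krt18 rose, none of them called with KO 4 and KO 5 averaged. Among 6 tested epithelial markers Epcam rose by 1.85 (SE 0.26) and Cdh1 by 2.70 (SE 0.64), Krt5 fell by 0.73 (SE 0.15), and the summed level was −1.67 to −1.51 in WT and −1.60 to −1.52 in KO. Neural and glial markers summed to 3.92 to 4.54 in WT and 3.78 to 3.94 in KO, with a rise of Map2 by 1.77 (SE 0.16). The part of cell mixture in the differences above was not tested.

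Genes near Sirt1 were called at a share close to that of all features. Of 124 tested features of chromosome 10 within 10 Mb of the Sirt1 probes, 7 rose and 10 fell (13.7%, against 11.8% of all features), and the median difference was −0.07.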

How the data were processed

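Per the file headers and labels, the deposited files hold 1-colour spot intensities from Agilent arrays, background-subtracted by the scanner software (Agilent Feature Extraction 9.5, per the submitters' processing notes). From these deposited intensities, log2 of the processed signal minus each array's 75th percentile was computed, without control spots and outlier flags, and spots of a probe were averaged. The brightest probe stands for a gene. Probes were named through RefSeq (GRCm38.p6): 22951 by accession, 6659 by symbol, 3109 by synonym and 8455 by the array's own name. Features had to be well above background on all 3 arrays of a genotype. Group means were fitted with limma 3.58.1 in R 4.3.3 (lmFit, eBayes, Benjamini-Hochberg). On simulated data of 17474 genes, 200 of them changed, the fit recovered 20 of 100 changed 2-fold and 87 of 100 changed 4-fold, with 5 false calls. The simulated arrays were independent of each other, unlike KO 4 and KO 5. That count of false calls therefore does not give the number among the 2065 features. Arrays carry no read depth, and their number limits the precision.

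The named genes are the 14 largest measured rises and falls and the 6 largest bounds each way among those meeting the rule given above, and up to 4 called members of a list each way, besides members the text describes for their role. Some of these genes are not reported here. The members and gene lists were chosen with earlier results of these data known. Alternatives were the averaging of KO 4 and KO 5, the number 3 arrays, other scalings, normexp (offset 50), other filters, slide and replicate blocks, the deposited series table and leaving out each array. A common floor was added after seeing the data. WT 3, KO 3 and Het 3 entered no main test. Figures were drawn with matplotlib 3.10.9.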

Additional observations from a re-analysis of the deposited data

How the results depend on the processing

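The count of 2065 called features (1045 higher and 1020 lower in KO) changed by over 1.5 times in several alternatives. It was 652 (301 and 351) with KO 4 and KO 5 averaged, 85 (53 and 32) with the number 3 arrays kept, 801 (430 and 371) with normexp, 792 (375 and 417) with no filter and 1262 with no scaling, of which 418 were lower. Slide as a block gave 4400 (2189 and 2211). Leaving out 1 array gave 647 (without KO 4) to 3337 (without WT 1) calls, 288 to 1684 of them higher and 355 to 1653 lower. Among the 9 arrays other than number 3, deviations of same-numbered arrays correlated at −0.26 to 0.23, so no pairing by number was assumed; the number 3 arrays did resemble each other. The replicate block over numbers 2 and 5 gave 1045 calls (516 and 529), and in the 9-array fit 2172 against 3047 without the block.

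The first Sirt1 probe kept its direction and missed the threshold at −0.91 with KO 4 and KO 5 averaged, −0.83 with the number 3 arrays, −0.81 unscaled, −0.94 with normexp, −0.99 with no filter and −0.97 with the replicate block. Leaving out 1 array gave −0.89 to −1.17, past the threshold without WT 1 or KO 2. Near Sirt1, 9 of 85 tested features were called within 5 Mb (10.6%) and 46 of 339 within 20 Mb (13.6%), against 11.8% of all features. The genes chosen by size or from lists included 222 called ones. With the number 3 arrays kept, 23 of these kept their call and 197 kept their direction but lost the call. The other 2 changed sign, Fabp4 (0.18) and Cdk6 (0.068). With KO 4 and KO 5 averaged 93 of the 222 lost the call and 0 changed sign. The cause of these changes was not tested.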

Other observations

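Calls were spread unevenly over chromosomes, a pattern noticed after the values were seen and not tested. On chromosome 8, 129 of 888 tested features fell (14.5%, against 5.84% of all features) and 35 rose, with a median difference of −0.26. With KO 4 and KO 5 averaged 25 fell and 16 rose. Relative to the mean of WT 1, 2 and 5, the chromosome 8 median was −0.16, 0.08 and 0.08 on those arrays. It was −0.34, −0.21 and −0.26 on KO 2, 4 and 5 and −0.16, −0.18 and −0.18 on Het 2, 4 and 5. On WT 3 it was −0.50 and on KO 3 −0.25. The KO 3 minus WT 3 median was 0.24, against 0.25 over all features. On chromosome 13, 63 of 642 rose (9.81%) and 19 fell, with a median of 0.23. Averaging KO 4 and KO 5 left 10 rises and 7 falls there, where 1.72% of all features rose and 2.01% fell.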
